A study of Mus musculus with 6 samples.

Results

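The mRNA levels of 52 mouse genes of the DNA replication machinery and of nucleotide supply were followed in spleens of the SA-H group and the MOD group. The genes were listed by name and function, with earlier results of these data known, and all 52 had a probe on the array, out of 20659 genes named there. They cover 7 roles: 15 genes of origin recognition and licensing, 8 of helicase activation, 9 of primase and the polymerases, 6 of the sliding clamp and its loader, 5 of single-strand binding and fragment joining, 4 of fork protection and 5 of nucleotide supply. Mice of both groups were 8-week-old male ICR mice, an outbred strain, and had received 40 mg/kg cyclophosphamide (Cy), a DNA-alkylating drug that kills dividing cells, by intraperitoneal injection for 5 days. By the labels, the SA-H group (arrays 4, 5 and 6) was then given 1000 mg/kg per day of schisandrol A (SA), a lignan of Schisandra fruit, by gavage. It was labelled day 28. The paper that names this group states a different dose, in molar units, and a shorter course, and these accounts were not reconciled here. The MOD group (arrays 1, 2 and 3) was labelled day 5, while the protocol in the labels gives model mice water over the 4 weeks of SA treatment. Treatment and day of sampling therefore cannot be told apart where the labels hold. Mice without Cy were not analysed here, and nothing states that the 3 arrays of a group came from separate mice, so the p-values rest on sample-to-sample spread that could be technical in part.

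A eukaryotic cell copies its DNA once per division. The origin recognition complex (ORC) marks the start sites, and Cdc6 and Cdt1 load the ring-shaped MCM helicase there, a step called licensing. In S phase the Cdc7-Dbf4 kinase, Mcm10, Cdc45 and the GINS complex switch the helicase on, primase and the polymerases copy the strands, and ribonucleotide reductase and thymidylate enzymes supply the deoxynucleotides. Many of these genes are transcribed mainly in dividing cells under E2F transcription factors, and in a spleen recovering from Cy the dividing cells can be lymphocytes as well as red cell and granulocyte precursors. In bulk tissue, fewer cells of a type and less RNA per cell cannot be told apart.

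Because E2F control is the best known feature of the family, the promoter sequences of 4 licensing genes are shown first, 3 that were lower in SA-H spleens on every omission of an array (Orc1, Mcm2 and Mcm5) and 1 that did not pass the test (Mcm6). Each runs 5′ to 3′ over 300 bases, 250 before and 50 after the annotated start, and is taken from RefSeq (GRCm38.p6). Capitals mark matches to the E2F motif, searched as TTTCCCGC, TTTGGCGC, TTTCGCGC and TTTGCCGC on both strands.
Orc1, chr4:108579204-108579503, plus strand: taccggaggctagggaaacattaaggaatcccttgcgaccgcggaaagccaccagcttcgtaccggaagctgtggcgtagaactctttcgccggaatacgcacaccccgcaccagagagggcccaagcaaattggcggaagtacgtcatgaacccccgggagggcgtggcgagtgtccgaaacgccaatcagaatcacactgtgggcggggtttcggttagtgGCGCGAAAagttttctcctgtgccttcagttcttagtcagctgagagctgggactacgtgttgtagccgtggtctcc
Mcm2, chr6:88898731-88899030, minus strand: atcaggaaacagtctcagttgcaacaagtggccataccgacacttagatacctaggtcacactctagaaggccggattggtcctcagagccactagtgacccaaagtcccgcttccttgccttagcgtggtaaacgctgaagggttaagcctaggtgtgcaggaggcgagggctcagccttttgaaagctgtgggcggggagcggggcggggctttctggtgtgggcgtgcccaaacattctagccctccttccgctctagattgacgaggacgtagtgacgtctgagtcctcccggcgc
Mcm5, chr8:75109259-75109558, plus strand: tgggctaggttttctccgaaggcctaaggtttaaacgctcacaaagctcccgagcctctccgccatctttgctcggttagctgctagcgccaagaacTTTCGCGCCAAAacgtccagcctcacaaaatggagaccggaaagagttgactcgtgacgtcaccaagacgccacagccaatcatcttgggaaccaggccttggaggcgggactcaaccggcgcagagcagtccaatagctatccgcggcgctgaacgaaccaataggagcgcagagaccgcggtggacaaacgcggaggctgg
Mcm6, chr1:128359656-128359955, minus strand: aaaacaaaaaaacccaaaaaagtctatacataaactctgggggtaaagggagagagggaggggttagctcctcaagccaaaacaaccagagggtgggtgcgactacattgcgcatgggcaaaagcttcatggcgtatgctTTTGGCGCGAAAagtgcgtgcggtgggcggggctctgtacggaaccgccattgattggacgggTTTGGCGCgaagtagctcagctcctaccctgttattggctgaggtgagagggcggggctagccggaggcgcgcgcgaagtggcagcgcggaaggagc
The Orc1 window held 1 match, at position -27 relative to the start site. The Mcm5 window held 2 overlapping matches, at positions -153 and -149, and the Mcm6 window held 3, the first 2 of them overlapping. No match was in the Mcm2 window, which held 1 CCAAT box (letters CCAAT) and 1 CHR element (letters TTTGAA or TTCGAA). The Orc1, Mcm5 and Mcm6 windows held 2, 3 and 2 CCAAT boxes and no CHR element. A match is a description of the letters and does not show binding. Only the exact letters were searched within the window, so the lack of a match does not show that a gene has no E2F site.

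Of the 52 genes, 43 had a promoter entry, and 16 of these (37.2%) held an E2F match, against 704 of 27025 genes in the table (2.60%) and 401 of 8813 tested genes with an entry (4.55%). Of the 16, 8 were licensing genes, out of 13 with an entry, and 4 were of primase and the polymerases, out of 7, while 0 of 5 nucleotide supply genes had one. The CCAAT box was found in 24 of 43 genes, or 55.8%, against 41.1% of all genes in the table. The CHR element was found in 9 of 43, or 20.9%, against 21.7% of all genes. A match was in 5 of the 16 genes with an entry that were lower in SA-H spleens at an unadjusted p under 0.05 (31.2%), and in 11 of the 25 other tested genes (44.0%).

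Levels are given as the log2 of the processed spot signal relative to the 75th percentile of the same array, so that 0 is the level of that percentile. They can be compared between arrays for 1 gene, but not between genes. That percentile spanned 220 to 868 signal units on the SA-H arrays and 599 to 840 on the MOD arrays, with the lowest on SA-H array 4. Of all spots, the scanner software called 44.7 to 73.9% well above background on the SA-H arrays and 43.1 to 72.2% on the MOD arrays. SA-H array 6 was scanned on the same day as MOD arrays 1 and 3, SA-H array 4 on the day of MOD array 2, and SA-H array 5 alone on another day. The labels name spleen, and 11 of 12 markers of B cells and 12 of 12 of T cells were detected well enough to test. Their extraction text also speaks of liver, of which 1 of 8 markers could be tested, and Apoa1, Cyp3a11 and Ttr stayed at background on all arrays. The deposited table of normalized log2 values did not follow the scanner signals array by array. Over 13894 probes, the deviations of a table column from the mean of its probes correlated with those of the scanner array of the same sample at 0.14, 0.03 and 0.37 for SA-H samples 4, 5 and 6, and at 0.47, 0.40 and -0.27 for MOD samples 1, 2 and 3. The table columns of MOD sample 3, SA-H sample 4 and SA-H sample 5 were closest to SA-H arrays 4, 5 and 6. Whether the table columns or the scanner files are out of place was not settled, and all values by group rest on the scanner files as they are assigned to the samples, with the table set beside them where it differs.

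Several replication genes were lower in SA-H spleens than in MOD spleens at an unadjusted p under 0.05, with the helicase subunits Mcm2 and Mcm5, the origin subunit Orc1 and the kinase subunit Dbf4 2.05-fold to 2.62-fold lower. The clamp Pcna, the origin subunit Orc3 and both ribonucleotide reductase subunits differed by less than 0.2 on the log2 scale. Of 44 genes well above background on all 6 arrays, 12 (27.3%) were lower at an unadjusted p under 0.05, against 11.5% of all genes measured that well, and 0 were higher. With no filter on dim probes, 10 of 52 (19.2%) were lower, against 3.84% of all 32102 genes and unnamed targets. Of these 32102, 14474 passed the filter described next, while 50 of the 52 did. The unfiltered shares therefore set mostly detected genes against a set with many undetected ones. The filter used throughout asked that a probe be detected well above background on each of the 3 arrays of at least 1 group, and 50 genes passed it. Of these 50, 18 (36.0%) were lower and 0 were higher, against 12.5% of all tested genes lower and 10.8% higher. Orc2, Orc5, Gins2, Pola2, Pold2 and Pole2 passed through the MOD arrays alone and could hardly fail to differ, so counts over the 50 are descriptions. At a fold of at least 2, 10 of the 50 were lower, these 6 included, against 5.03% of all tested genes. Of the 44 genes above background on all 6 arrays it was 4, against 3.43% of genes measured that well. Every SA-H array lay below every MOD array for 24 of the 50 (48.0%), against 20.7% of all tested genes, and for 18 of the 44 (40.9%), against 19.3% of genes measured that well. The opposite held for 0 of the 50, against 1726 of all 14474 tested genes, and for 0 of the 44, against 1382 of 12140 genes measured that well. No gene passed an adjusted p of 0.05 in limma (Benjamini-Hochberg), among the 50 or among all 14474 genes and unnamed targets tested. The same count was 0 in an ordinary comparison of 2 means, while 3377 passed an unadjusted p under 0.05 in limma. The smallest adjusted p was 0.0762 among the 50, for Mcm2, and 0.0712 among all. The median change of the 50, SA-H minus MOD, was -0.56 on the log2 scale, against -0.04 for all tested genes. For the 44 above background on all 6 arrays it was -0.43, against -0.02 for genes measured that well. When each array was scaled by its median instead, the median of all genes shifted to -0.36 and the 50 stood at the same distance below it, -0.52. That scaling moves every change by -0.32, so that Gmnn, Orc3, Pcna and Rrm1, with small positive changes, become negative by construction.

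**Figure D1:**
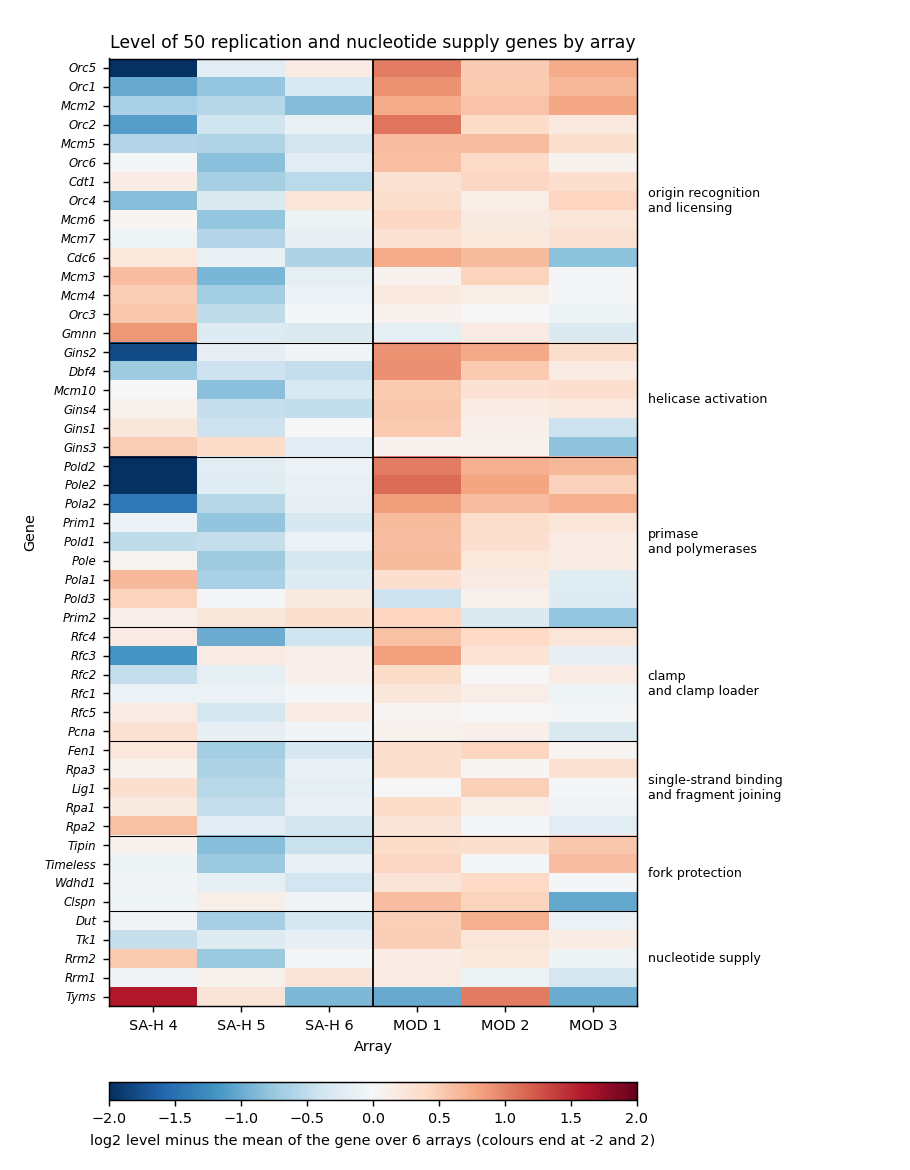
Heat map of the log2 level of the 50 tested genes (rows, grouped by role and ordered by change) on the 3 SA-H arrays (left) and the 3 MOD arrays (right), each gene relative to its mean over 6 arrays, with red above and blue below that mean. SA-H array 5 was the lowest of the 6 arrays for 23 genes and SA-H array 4 for 13, but SA-H array 4 was also the highest for 12, and MOD array 1 was the highest for 27.

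The arrays of the SA-H group did not behave alike. With each gene set relative to its mean over the 6 arrays, the median of the 50 was 0.02, -0.47 and -0.16 on SA-H arrays 4, 5 and 6, against 0.41, 0.28 and 0.11 on MOD arrays 1, 2 and 3. All 3 SA-H medians lay below all 3 MOD medians, with SA-H array 4 closest to the MOD group. These medians include the 6 genes that passed the filter through the MOD arrays alone, so they are descriptions. Leaving out 1 array at a time, 5 of the 50 were lower without MOD array 1, 11 without MOD array 2, 15 without MOD array 3, 25 when SA-H array 4 was dropped, 10 for SA-H array 5 and 13 for SA-H array 6. Orc1, Mcm2, Mcm5, Dbf4 and Pola2 were lower under every omission. The filter was not redone for each omission, and Pola2, kept through the MOD arrays alone, could hardly fail to stay lower. The share of all tested genes lower under each omission is not given here, so these counts are descriptions. Calls over all tested genes at a fold of at least 2 moved too, from 1849 to between 1228 and 2466. Within the first scan day 42 of the 50 had a negative change, with a median of -0.48, and within the second day 33 had one, with a median of -0.24. Within both days 32 of the 50 were negative. The matching shares of all tested genes within a scan day are not given here. Over all 6 arrays 42 of the 50 were negative, against 7570 of 14474 tested genes. With the scan day as a block, 10 genes were lower, all among the 18, against 13.2% of all tested genes. These were Orc1, Mcm2, Mcm5, Dbf4 and the 6 genes that passed the filter through the MOD arrays alone. As those 6 could hardly fail to differ, this count is a description and shows no excess over all tested genes. At an adjusted p of 0.05 in limma 3 of the 50 passed. This share was below the 7.43% of all tested genes that passed in either direction. The 3 genes were Mcm2 (limma, adjusted p = 0.0297), Orc1 (0.0416) and Pola2 (0.0495), the last of which was kept through the MOD arrays alone.

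In the licensing role 7 of 15 genes were lower (46.7%) and the median change was -0.60. Of the 7, Orc2 and Orc5 passed the filter through the MOD arrays alone. Counts by role are descriptions, to be read beside the 12.5% of all tested genes lower by the same rule. Mcm2, a subunit of the helicase ring, was at 2.55, 2.64 and 2.35 on SA-H arrays 4, 5 and 6, against 3.94, 3.77 and 3.98 on MOD arrays 1, 2 and 3. The groups were far apart and narrow in both, for a change of -1.39 ± 0.22 (SE, n = 3 each), or 2.61-fold lower (limma, adjusted p = 0.0762). Taking the 2 days with arrays of both groups separately, the change of Mcm2 was -1.61 and -1.22. Mcm5, another ring subunit, was at 2.32, 2.32 and 2.55 on the SA-H arrays, against 3.54, 3.52 and 3.23 on the MOD arrays. Its groups were likewise separate, 2.05-fold apart (-1.03 ± 0.23, adjusted p = 0.089 in limma), with changes of -0.83 and -1.20 within the scan days.

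The other 4 subunits of the ring had smaller changes, none of which passed. Mcm7 was at 4.43, 3.92 and 4.34 on the SA-H arrays, against 4.81, 4.71 and 4.81 on the MOD arrays, and Mcm6 at 5.33, 4.52 and 5.18 on the SA-H arrays, against 5.70, 5.47 and 5.54 on the MOD arrays. Both had every SA-H array below every MOD array, with changes of -0.55 ± 0.24 and -0.56 ± 0.28 that missed an unadjusted p of 0.05. Mcm3 was at 4.25, 2.72 and 3.44 on the SA-H arrays, against 3.70, 4.08 and 3.62 on the MOD arrays, and Mcm4 at 5.30, 4.10 and 4.69 on the SA-H arrays, against 5.00, 4.94 and 4.78 on the MOD arrays. For these 2 subunits SA-H array 4 was the highest and SA-H array 5 the lowest of all 6, so the groups overlapped, and the changes were -0.33 ± 0.40 and -0.21 ± 0.33. Subunits can be set against each other as ratios within an array, which are free of the array's scaling. The log2 ratio of Mcm2 to Mcm4, relative to its mean over the MOD arrays, was -1.74, -0.46 and -1.34 on SA-H arrays 4, 5 and 6, against -0.05, -0.15 and 0.20 on MOD arrays 1, 2 and 3. All SA-H arrays were below all MOD arrays, with a difference of -1.18. Of 8 such ratios of Mcm2 or Mcm5 to Mcm3, Mcm4, Mcm6 or Mcm7, chosen after the single values were seen, 5 were separate between the groups and all 8 were lower on average in SA-H spleens, with differences of -0.47 to -1.18. Since Mcm2 and Mcm5 were picked as the 2 lowest, this choice fixes the direction, and the ratios were not tested.

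**Figure D2:**
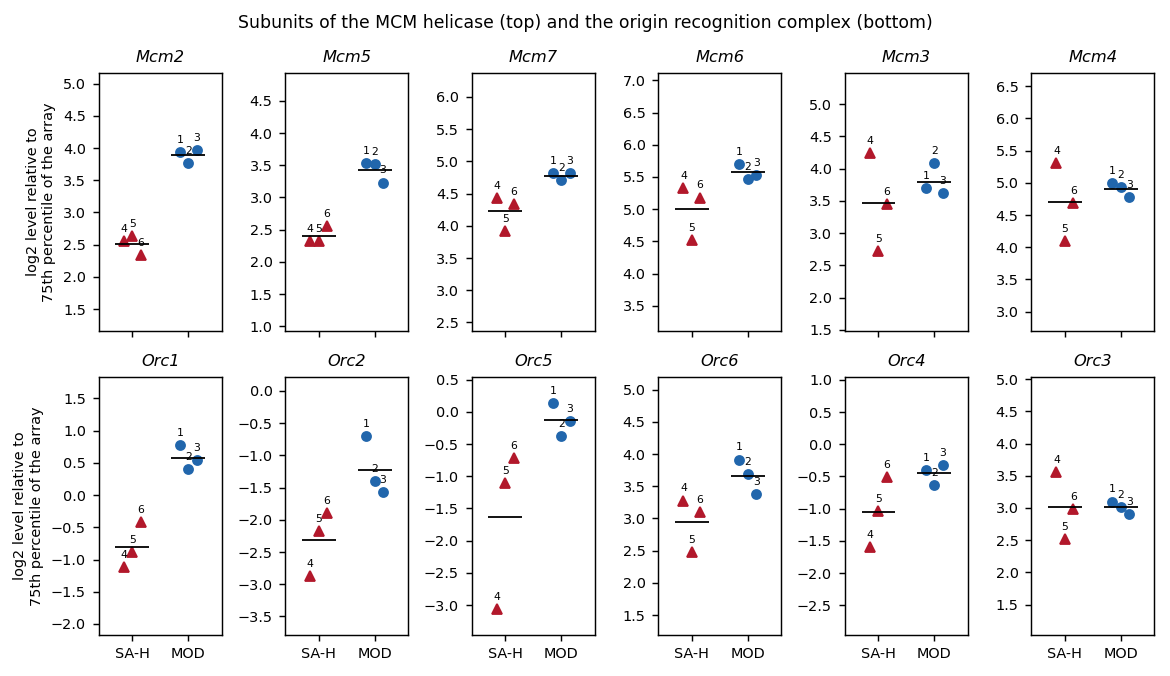
Log2 level relative to the 75th percentile of the array, for the 6 subunits of the MCM helicase (top) and the 6 of the origin recognition complex (bottom), with SA-H arrays as triangles, MOD arrays as circles, digits for array numbers and lines for group means. Every panel spans the same range on its axis, and the groups are separate for Mcm2, Mcm5, Mcm6, Mcm7, Orc1, Orc2, Orc5 and Orc6.

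Within the origin recognition complex, Orc1, the subunit that comes and goes with the cell cycle in mammalian cells, was at -1.11, -0.89 and -0.42 on the SA-H arrays, against 0.78, 0.41 and 0.55 on the MOD arrays. No SA-H array reached the level of any MOD array, and the change was -1.39 ± 0.27, or 2.62-fold (limma, adjusted p = 0.0809). Orc6 was at 3.28, 2.47 and 3.10 on the SA-H arrays, against 3.92, 3.70 and 3.38 on the MOD arrays. Its groups were separated by a small gap, with a change of -0.71 ± 0.30 (limma, adjusted p = 0.209). Orc2 was at -2.87, -2.17 and -1.90 on the SA-H arrays, against -0.70, -1.40 and -1.57 on the MOD arrays, and Orc5 at -3.06, -1.11 and -0.72 on the SA-H arrays, against 0.14, -0.37 and -0.14 on the MOD arrays. Both were well above background on 2 of 3 SA-H arrays and lowest on the dim SA-H array 4. Their changes of -1.09 ± 0.36 and -1.50 ± 0.59 were -0.81 and -0.79 without that array. Orc4 had a change of -0.60 ± 0.32 that did not pass, and its groups overlapped. Orc3 had the smallest change of the role, 0.01 ± 0.31, with 3.55, 2.51 and 2.98 on the SA-H arrays, against 3.10, 3.02 and 2.91 on the MOD arrays. Its MOD arrays lay inside the range of the SA-H arrays, and the 95% interval of the change, -0.72 to 0.73, does not exclude a change of the size of Orc6.

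Of the loading factors, Cdt1, which brings the MCM ring to the origin, was at 3.45, 2.63 and 2.75 on the SA-H arrays, against 3.60, 3.71 and 3.64 on the MOD arrays. The MOD arrays were close together and above all SA-H arrays, for a change of -0.71 ± 0.28 (limma, adjusted p = 0.196). Its partner Cdc6 had 2 probes that differed in sign. The brighter probe was at 0.80, 0.45 and -0.04 on the SA-H arrays, against 1.32, 1.21 and -0.24 on the MOD arrays, with a change of -0.36. The dimmer one was at 0.35, -1.04 and 0.04 on the SA-H arrays, against -0.24, -0.47 and -0.78 on the MOD arrays, with a change of 0.27. The groups overlapped on both probes, MOD array 3 being the lowest on the brighter one. Gmnn (geminin), the inhibitor of Cdt1, had a change of 0.21 ± 0.37, with SA-H array 4 above all other arrays.

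Helicase activation had 6 of 8 genes tested, of which 3 were lower, against 12.5% of all tested genes. Of the 3, Gins2 passed the filter through the MOD arrays alone. Dbf4, the subunit that activates the Cdc7 kinase, was at -0.45, -0.15 and -0.20 on the SA-H arrays, against 1.18, 0.80 and 0.43 on the MOD arrays. All SA-H values were below 0 and all MOD values above it, for a change of -1.07 ± 0.27, or 2.1-fold (limma, adjusted p = 0.0998). Cdc7 itself was well above background on 1 SA-H array and 1 MOD array by either of its probes and was not tested. Mcm10, which helps to start the helicase, was at 1.51, 0.68 and 1.21 on the SA-H arrays, against 2.04, 1.81 and 1.84 on the MOD arrays. Here too the groups were separate, with a change of -0.77 ± 0.28 (limma, adjusted p = 0.173).

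Of the 4 subunits of the GINS complex, which binds the active helicase, 1 was lower. Gins2 was at -4.53, -2.91 and -2.79 on the SA-H arrays, against -1.85, -1.99 and -2.39 on the MOD arrays, close to background, and was well above it on 2 of 3 SA-H arrays. Its groups were separate and SA-H array 4 was the lowest, and the change of -1.33 ± 0.48 (limma, adjusted p = 0.168) was -0.78 without that array. Gins4 had a change of -0.58 ± 0.27, which did not pass although every SA-H array was below every MOD array. Gins1, with the smallest change of the role, was at 1.42, 0.78 and 1.18 on the SA-H arrays, against 1.71, 1.29 and 0.75 on the MOD arrays. The groups overlapped widely and the change was -0.12 ± 0.32. Gins3 had a positive change of 0.43 ± 0.34 that did not pass. Cdc45, which joins GINS on the helicase, was well above background on 2 of 3 SA-H arrays and 2 of 3 MOD arrays and was not tested.

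Of 9 genes of primase and the polymerases, 5 were lower, against 12.5% of all tested genes. Of the 5, 3 were close to background and passed the filter through the MOD arrays alone. Prim1, the catalytic subunit of primase, which makes the RNA primers, was at 2.47, 1.78 and 2.26 on the SA-H arrays, against 3.21, 2.93 and 2.82 on the MOD arrays. The groups did not overlap and the change was -0.82 ± 0.27 (limma, adjusted p = 0.149). Its partner Prim2 had a change of 0.43 ± 0.34 in the other direction that did not pass. Pold1, the catalytic subunit of polymerase delta, which copies mainly the lagging strand, was at 1.34, 1.37 and 1.73 on the SA-H arrays, against 2.47, 2.18 and 2.01 on the MOD arrays. Its groups were separate as well, with a change of -0.74 ± 0.25 (limma, adjusted p = 0.152). Pole, the catalytic subunit of polymerase epsilon, which copies mainly the leading strand, had a change of -0.67 ± 0.29 with separate groups but missed an unadjusted p of 0.05.

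The other 3 lower genes of this role, all accessory subunits, were measured near background. Pola2, of the polymerase alpha complex, was at -4.62, -3.76 and -3.35 on the SA-H arrays, against -2.34, -2.57 and -2.47 on the MOD arrays, and well above background on 1 of 3 SA-H arrays. Pold2 was at -4.71, -2.91 and -2.79 on the SA-H arrays, against -1.66, -1.96 and -2.01 on the MOD arrays, and Pole2 at -3.66, -1.92 and -1.82 on the SA-H arrays, against -0.57, -0.89 and -1.22 on the MOD arrays, each above background on 2 of 3 SA-H arrays. In all of these the groups were separate and SA-H array 4 was the lowest of the 6. The changes were -1.45 ± 0.35 for Pola2, -1.60 ± 0.51 for Pold2 and -1.58 ± 0.51 for Pole2 (limma, adjusted p = 0.0937, 0.144 and 0.144), and without SA-H array 4 they were -1.09, -0.97 and -0.98. Pola1, the catalytic subunit of polymerase alpha, was at 3.54, 2.24 and 2.63 on the SA-H arrays, against 3.23, 3.06 and 2.66 on the MOD arrays. It had the smallest change of the role, -0.18 ± 0.37, and SA-H array 4 was the highest of all while SA-H array 5 was the lowest. Pold3, another accessory subunit of polymerase delta, had a change of 0.38 ± 0.26 that did not pass.

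**Figure D3:**
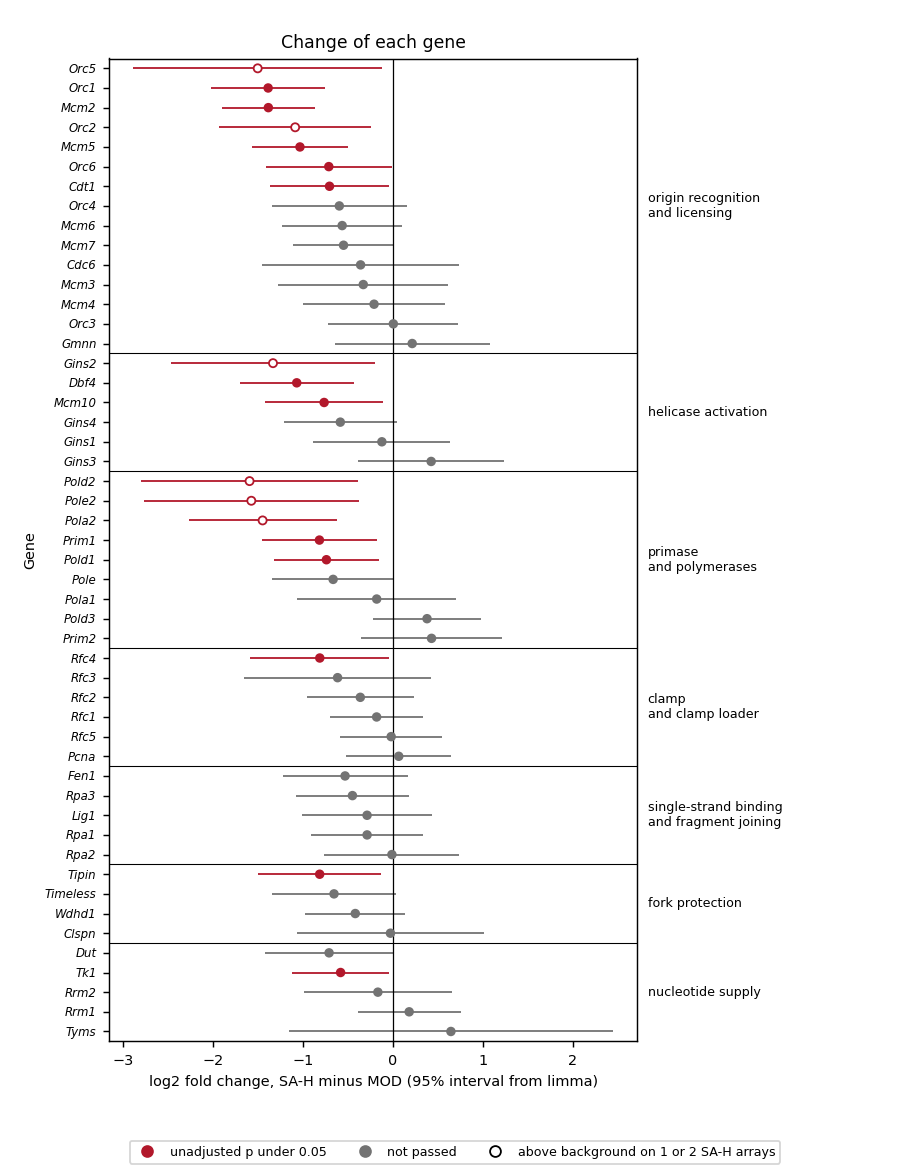
Log2 fold change, SA-H minus MOD, of the 50 tested genes grouped by role, with the 95% interval from limma. Red points passed an unadjusted p of 0.05 and all 18 of them lie below 0, while open points mark the 6 genes that were well above background on 1 or 2 of the 3 SA-H arrays.

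In the clamp and clamp loader role 1 of 6 genes was lower (16.7%), near the 12.5% of all tested genes. Rfc4, a subunit of the loader that opens the clamp, was at 3.50, 2.36 and 2.95 on the SA-H arrays, against 3.93, 3.74 and 3.59 on the MOD arrays. The lowest MOD array was just above the highest SA-H array, the change was -0.81 ± 0.33 (limma, adjusted p = 0.2), and a second Rfc4 probe gave -0.92. The loader subunits Rfc1, Rfc2 and Rfc3 had changes of -0.18 ± 0.22, -0.36 ± 0.25 and -0.62 ± 0.44, none of which passed. Rfc5 was at 2.03, 1.51 and 2.02 on the SA-H arrays, against 1.92, 1.86 and 1.84 on the MOD arrays, the smallest change of the role (-0.02 ± 0.24). Its groups overlapped, with 2 SA-H arrays above all MOD arrays and 1 below. Pcna, the sliding clamp itself and a common marker of dividing cells, was at 5.94, 5.48 and 5.59 on the SA-H arrays, against 5.72, 5.74 and 5.35 on the MOD arrays. It did not separate the groups, with a change of 0.07 ± 0.25 and a 95% interval of -0.52 to 0.65.

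No gene of single-strand binding and fragment joining passed, 0 of 5. The changes were -0.53 ± 0.30 for the flap nuclease Fen1, -0.29 ± 0.31 for the ligase Lig1, and -0.29 ± 0.27, -0.01 ± 0.32 and -0.45 ± 0.27 for Rpa1, Rpa2 and Rpa3, which coat single-stranded DNA. Rpa2, with the smallest of these, was at 0.84, 0.03 and -0.10 on the SA-H arrays, against 0.52, 0.24 and 0.04 on the MOD arrays. The highest and the lowest value were both on SA-H arrays.

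Of the 4 fork protection genes, Tipin was lower, at 4.08, 3.15 and 3.56 on the SA-H arrays, against 4.38, 4.32 and 4.54 on the MOD arrays. Its groups were separate, with a change of -0.81 ± 0.29 (limma, adjusted p = 0.167). Timeless, its binding partner, was at 1.92, 1.28 and 1.87 on the SA-H arrays, against 2.42, 1.98 and 2.63 on the MOD arrays, by its brighter probe. By its second probe it was at 0.00, -0.63 and -1.09 on the SA-H arrays, against -1.50, -0.76 and -1.70 on the MOD arrays. The groups were separate on the brighter probe, with a change of -0.66, and overlapped on the other, with a change of 0.75, so the probes disagreed in direction and neither passed. Wdhd1, which ties polymerase alpha to the helicase, had a change of -0.42 ± 0.24. Clspn (claspin), a checkpoint adaptor at the fork, was at -1.37, -1.16 and -1.35 on the SA-H arrays, against -0.65, -0.84 and -2.31 on the MOD arrays. The MOD arrays spread further than the SA-H arrays and enclosed them, with the smallest change of the role, -0.03 ± 0.44.

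Among nucleotide supply genes 1 of 5 was lower (20%), near the 12.5% of all tested genes. Tk1, the thymidine kinase of dividing cells, was at 2.70, 2.90 and 2.99 on the SA-H arrays, against 3.64, 3.39 and 3.30 on the MOD arrays. The groups were separate and the change was -0.58 ± 0.23 (limma, adjusted p = 0.193). Dut, which removes dUTP, had a change of -0.71 ± 0.30, with 1 SA-H array above the lowest MOD array, and narrowly missed an unadjusted p of 0.05. Tyms, which makes thymidylate, was at 1.42, 0.07 and -1.08 on the SA-H arrays, against -1.20, 0.84 and -1.18 on the MOD arrays. Its change of 0.65 ± 0.77 had the largest error of the 50, and SA-H array 4 and MOD array 2, which shared a scan day, were the 2 highest. The ribonucleotide reductase subunits were close between the groups, Rrm2 at 5.79, 4.53 and 5.24 on the SA-H arrays, against 5.42, 5.48 and 5.17 on the MOD arrays, and Rrm1 at 3.83, 3.96 and 4.15 on the SA-H arrays, against 4.06, 3.78 and 3.55 on the MOD arrays. Rrm2, the subunit made in S phase, was lowest on SA-H array 5 and highest on SA-H array 4 (-0.17 ± 0.35), and Rrm1 overlapped widely (0.18 ± 0.24). The median change of the role, -0.17, was 0.16 without SA-H array 5 and 0.10 once scan day entered as a block.

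The deposited table gave a larger shift and another ranking. In it 31 of the 50 (62.0%) were lower at an unadjusted p under 0.05, against 16.4% of all tested genes, and 0 were higher. The median change there was -0.85, and 47 were negative. Of the 31, 11 were among the 18 lower by the scanner signals and 20 were lower in the table alone. The rest of the 18 did not pass in the table. These were Dbf4 (-0.82), Pold1 (-0.05), Orc2 (-0.63), Orc5 (-0.16), Gins2 (-1.01), Pold2 (-0.71) and Pole2 (-0.84). Rrm2 was at 11.01, 11.83 and 11.56 in the table columns of SA-H samples 4, 5 and 6, against 13.75, 13.45 and 12.76 in those of MOD samples 1, 2 and 3, all log2 values. This is a change of -1.85 with separate groups, against -0.17 by the scanner signals. Pcna was at 12.37, 13.01 and 12.65 in the SA-H columns, against 14.30, 13.98 and 13.20 in the MOD columns. Its change of -1.15 had the opposite sign to the scanner value of 0.07, and the sign turned the same way for Rrm1 (-1.31), Gmnn (-1.35), Prim2 (-0.54), Pold3 (-0.26) and Orc3 (-0.02). Rpa2 turned the other way, to 0.77. For Mcm2, Mcm5 and Orc1 both forms of the data gave changes beyond -1, with -1.14, -1.14 and -1.40 in the table. In the table the groups were separate for Mcm2 and overlapped for Mcm5, Orc1 and Dbf4.

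**Figure D4:**
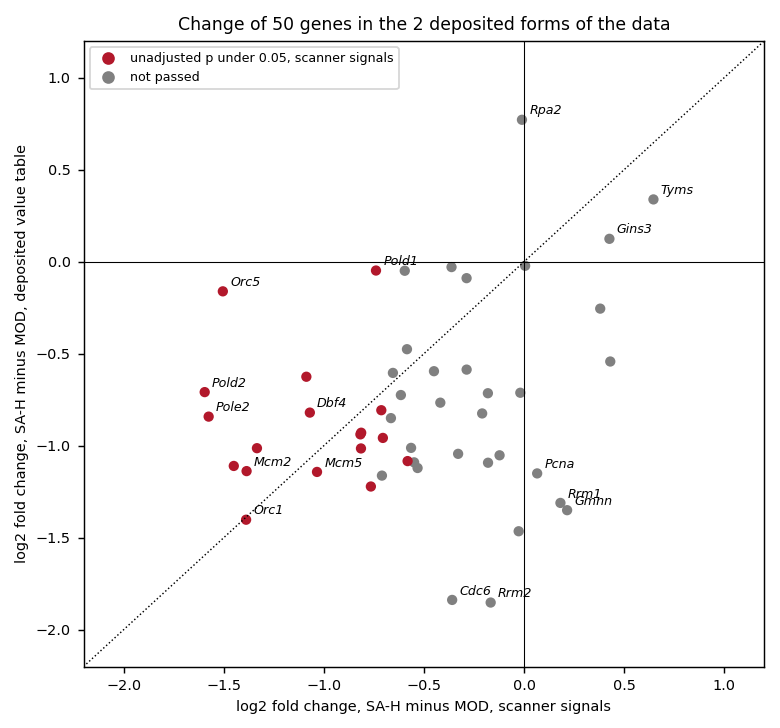
Log2 fold change, SA-H minus MOD, of the 50 tested genes by the scanner signals (x axis) and by the deposited value table (y axis), with equality as a dotted line. Red points passed an unadjusted p of 0.05 by the scanner signals; 41 genes were negative in both, and Pcna, Rrm1, Gmnn, Rrm2 and Cdc6 lie near or right of 0 on the x axis but below -1 on the y axis.

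Genes that work beside these were counted by the same rule. Of 29 tested replication genes outside the 52, 13 were lower and 0 higher, with a median change of -0.42. They included the nuclease-helicase Dna2 (-1.76 ± 0.26), the histone chaperone subunit Supt16 (-1.38 ± 0.22), the chromatin remodeller Hells (-1.48 ± 0.29) and Slbp, which binds histone mRNAs (-1.51 ± 0.33). The most opposite change was that of Chtf8, 0.88 ± 0.40. In the table the median of these 29 was -0.67, and the change of Hells turned to 0.19. Of 26 other nucleotide synthesis genes, 10 were lower and 0 higher, with a median of -0.63, among them Shmt2 (-1.12 ± 0.22), which feeds 1-carbon units into the pathway. The purine synthesis genes Atic, Gmps and Adss had changes of -1.03 ± 0.25, -1.51 ± 0.38 and -1.52 ± 0.38, while Pfas, also of purine synthesis, stood opposite at 1.24 ± 0.59 without passing. In the table the median of these 26 was -0.19, and the change of Pfas turned to -0.54. Of 19 mitosis genes, 12 were lower and 0 higher, with a median of -0.80, led by Anln (-1.30 ± 0.25), Bub1b (-1.37 ± 0.26), Bub1 (-1.28 ± 0.25) and Cdca8 (-1.07 ± 0.24). Aurkb stood opposite at 2.24 ± 1.07 and was well above background on 1 of 3 MOD arrays. In the table the median of these 19 was -1.33, and the change of Aurkb turned to -1.67. The share of all tested genes lower by the same rule was the 12.5% given above. Of the lower genes in these lists, Mcm8, Gmps and Ttk passed the filter through the MOD arrays alone and could hardly fail to differ.

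Some markers of cell types were lower as well. Their counts are to be read beside all tested genes, of which 12.5% were lower and 10.8% higher by the same rule. The macrophage share (11.1% lower) was near the share of all tested genes. Of 17 tested erythroid precursor markers, 6 were lower and 0 higher, with a median of -0.67. Epb42, a protein of the red cell membrane, had a change of -1.62 ± 0.33, while the globin gene Hba-a1 stood at 0.71 ± 0.41. The median was 0.10 within the second scan day and -2.45 in the table. The summed erythroid level, in multiples of the 75th percentile of the array, spanned 446 to 1148 on the SA-H arrays and 537 to 655 on the MOD arrays. Sums are carried by the brightest genes of a list, here Hba-a1 (log2 level of 9.23 on SA-H array 4). They do not weigh the genes of a list alike. Sptb stayed at background on every array. Of B cell markers 0 of 11 were lower and 1 was higher (median -0.13, sums of 125 to 157 on SA-H arrays and 122 to 156 on MOD arrays), and of T cell markers 0 of 12 passed in either direction (median 0.02, sums of 27.8 to 34.7 on SA-H arrays and 26.3 to 49.2 on MOD arrays). Of 10 neutrophil precursor markers 2 were lower and 1 higher (median -0.37, sums of 279 to 857 on SA-H arrays and 279 to 373 on MOD arrays), and of 8 plasma and germinal center cell markers 2 were lower (median -0.63, sums of 25.7 to 56.9 on SA-H arrays and 58.9 to 68.7 on MOD arrays). Of 9 macrophage markers 1 was lower and 1 higher (median -0.54), and of 8 megakaryocyte markers 0 passed (median 0.08). The lower macrophage marker, C1qa, passed the filter through the MOD arrays alone. The higher B cell marker, Fcer2a, passed it through the SA-H arrays alone. Fat markers were lower for 5 of 7, with a median of -2.38 (-1.47 without SA-H array 4 and -0.67 in the table). Their sums were 5.34 to 6.06 on SA-H arrays and 9.60 to 13.96 on MOD arrays. Of these 7, Fabp4 (-0.80) and Retn (-0.21) were well above background on all 6 arrays, and the others passed the filter through the MOD arrays alone. Of 8 pancreas markers 1 was tested and did not pass, and of 8 liver markers Tat alone was tested and was higher (1.93). Ribosomal protein genes had a median change of 0.52, with 2 higher and 1 lower of 20, and were highest on SA-H array 4. The table gave other values for several lists: 9 of 12 T cell markers (median 0.74) and 6 of 11 B cell markers (median 0.45) were higher there, and 7 of 8 megakaryocyte markers (median -1.77) and 9 of 10 neutrophil precursor markers (median -1.47) were lower. The part of these cell types and of RNA quality in the lower replication genes was not tested.

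**Figure D5:**
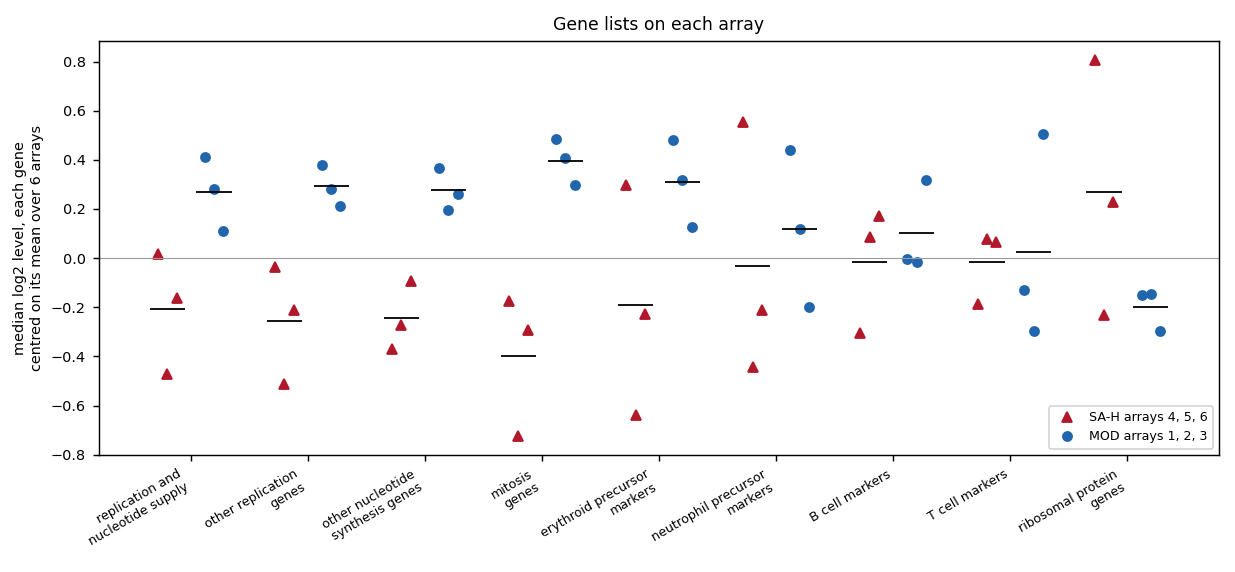
Median log2 level of each gene list on each array, every gene relative to its mean over the 6 arrays, for SA-H arrays 4, 5 and 6 (triangles) and MOD arrays 1, 2 and 3 (circles), with lines for group means. The replication, nucleotide synthesis and mitosis lists were lower on all SA-H arrays than on all MOD arrays, whereas the erythroid, neutrophil precursor, B cell and T cell lists overlapped between the groups. The replication and nucleotide supply list includes 6 genes that passed the filter through the MOD arrays alone. The plasma and germinal center cell, macrophage and fat lists, which are not plotted, were also lower on all SA-H arrays than on all MOD arrays, the macrophage list barely so.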

How the data were processed

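Spleen RNA of 3 SA-H and 3 MOD samples was measured on 1-colour Agilent arrays. The authors deposited spot intensity values made with Agilent Feature Extraction 11.0.1.1, which are background-subtracted, linear and not normalized between arrays, on a design of build mm9 per the file headers. They also deposited a table of log2 values whose 6 columns share 1 median; how it was normalized is not given in the sources used here. Columns that belong to no sample numbered 0. Processed signals were divided by the 75th percentile of their array and put on the log2 scale. Outlier spots were dropped, spots of a probe averaged, and probes kept where each of the 3 arrays of at least 1 group was well above background; of several kept probes the brightest was used. Of 39429 probes, 27234 (69.1%) were named through RefSeq transcripts (GRCm38.p6), 59 of them for the 52 genes. SA-H was compared with MOD by limma 3.58.1 (R 4.3.3) over all 14474 kept genes and unnamed targets, with Benjamini-Hochberg adjustment; the fit was first tested on simulated data in which 200 genes differed. Among genes past a fold of 2 at an unadjusted p under 0.05, 60.6% were higher in SA-H; this was 31.6% with scaling by the median and 23.3% in the table. Other steps used Python 3.11.15. The 52 genes and all lists were chosen with earlier results of these data known. Values per array are given for each of the 52 that passed an unadjusted p of 0.05, for the smallest change in each role and for genes whose kept probes differ in sign, and, beyond this rule, for further genes chosen after their values were seen (Mcm3, Mcm4, Mcm6, Mcm7, Pcna, Rrm1 and Tyms). Up to 4 genes with the smallest p and the most opposite one are named from each other pathway list. Alternatives were scaling by the median, quantile normalization, normexp (offset 50, on the median signal, as the files hold no mean signal), the deposited table, other filters, the mean of the probes, scan day or slide scan as a block, an ordinary comparison of 2 means, and the omission of each array.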

Additional observations from a re-analysis of the deposited data

How the results depend on the processing

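The count of 18 lower genes was 31 in the deposited table, 10 with no filter, 10 with scan day as block and 11 in an ordinary comparison of 2 means, and 5 to 25 when 1 array was left out; it stayed within 1.5 times under the other alternatives, and 0 of the genes were higher under any of these alternatives. At an adjusted p under 0.05 the count of 0 among the 50 was 7 with scaling by the median, 2 with normexp, 5 in the table and 3 with scan day as block. Over all tested genes, the 1849 called at a fold of at least 2 were 3158 with scaling by the median and 1135 in the ordinary comparison, and 1228 to 2466 when 1 array was left out. The 0 at an adjusted p under 0.05 became 1094 with scaling by the median, 1 with quantile normalization, 210 with normexp, 1779 in the table, 1 with a filter on all 6 arrays and 1075 with scan day as block, and 0 to 22 when 1 array was left out. The median change of -0.56 was -0.88 with scaling by the median, -0.85 in the table and -0.24 within the second scan day. Signs turned for Gmnn (-1.35), Prim2 (-0.54), Pcna (-1.15), Rrm1 (-1.31), Pold3 (-0.26), Orc3 (-0.02) and Rpa2 (0.77) in the table, for the nucleotide supply median (-0.17) with scan day as block (0.10), within the second scan day (0.044) and when 1 array was left out (-0.47 to 0.16), and for the medians of the erythroid (0.10), neutrophil precursor (0.50) and single-strand binding (0.05) lists within the second scan day. Medians near 0 turned under several settings, spanning -0.45 to 0.45 for B cell, -0.30 to 0.74 for T cell and -1.77 to 0.61 for megakaryocyte markers. The causes were not tested. No paired analysis was possible because the labels give the groups no shared replicate number or animal; the only matching was by scan day, given above. With 3 arrays a group, the number of arrays limits the precision, and genes near background, such as Pola2, rest on 1 or 2 SA-H arrays above it.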

Other observations

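Cdc45 and Cdc7 were the 2 genes too dim to test. Cdc45 was at -1.71, -2.14 and -3.11 on SA-H arrays 4, 5 and 6, against -3.40, -2.72 and -3.62 on MOD arrays 1, 2 and 3, a change of 0.93 between groups that overlapped. The 2 probes of Cdc7, each above background on 1 SA-H and 1 MOD array, gave 0.62 and -0.41. Dim second probes of other genes gave -0.73 for Orc4, with 1 of 3 SA-H arrays above background, -0.44 for Orc3 and 0.29 for Pole, against -0.60, 0.01 and -0.67 for the brighter ones.

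The table column of SA-H sample 4 correlated best with SA-H array 5 (0.26, against 0.14 with SA-H array 4), that of SA-H sample 5 with SA-H array 6 (0.26, against 0.03 with SA-H array 5), and that of MOD sample 3 with SA-H array 4 (0.31, against -0.27 with MOD array 3). These correlations run across probes of the same arrays and describe the files. Whether these columns or the scanner files are out of place was not settled here, and the cause was not tested.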
